A study of Mus musculus with 6 samples.

Results

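Transcripts of 7 caveola genes were examined in cultured primary mouse Sertoli cells: the caveolin genes Cav1 and Cav2, the cavin genes Cavin1, Cavin2 and Cavin3, and the genes of 2 membrane-shaping partners, Ehd2 and Pacsin2. The genes were taken from a fixed list of symbols, and each matched 1 of the 29275 gene identifiers measured, so 7 of 7 were found and 7 passed the filter on low values. RNA sequencing covered 6 libraries: 3 from Sertoli cells labelled Arhgef15 cKO, a conditional deletion of Arhgef15, and 3 from cells labelled WT and untreated. Cells of both genotypes were cultured at 34 °C in DMEM/F12 with 10% fetal serum and 0.25 µg/ml EGF, so growth factor and serum were present in every sample. The Cre driver, the deleted exons, the age of the mice and whether cultures pooled animals are stated nowhere in the sources used here. The labels call the replicates biological but name no animal or culture. A p-value here thus speaks only of spread among these 6 libraries.

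Caveolae are small flask-shaped pits of the plasma membrane, abundant in endothelial cells, fibroblasts, smooth muscle and adipocytes. Caveolins insert into the inner leaflet and oligomerise. Cavins form a coat over them, the ATPase EHD2 sits at the neck and holds the pit at the surface, and the F-BAR protein PACSIN2 bends the membrane during assembly. CAV1 and CAVIN1 are both needed for caveolae outside striated muscle. Caveolae flatten under membrane stretch and take part in lipid uptake and signalling.

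Depth, read from the step between neighbouring values, was 16790000 to 20320000 fragments per library. Genes above 0 numbered 23701, 21933 and 22648 in the libraries labelled cKO and 19105, 20807 and 23862 in WT replicates 1, 2 and 3. WT replicates 1 and 2 thus had the fewest genes detected, and the part of this in the results was not tested. Levels are given in FPKM (fragment counts scaled to transcript length and library depth). The sum of FPKM over all genes was highest in WT replicate 1, at 346688, against 291454 to 307231 in the other libraries. Arhgef15 itself was at 0.501, 0.322 and 0.338 FPKM in the libraries labelled cKO, against 0.123, 0.0237 and 0.349 FPKM in WT libraries. It was therefore not lower under the cKO label, at 3 to 63 fragments per library. Because the deleted exons are not known, a level over the whole gene cannot check the genotype labels. The groups are named here by their labels only. WT replicate 3 stood apart from the other WT libraries. Across 12284 tested genes its Pearson correlation was 0.947, 0.929 and 0.921 with the cKO libraries. It was 0.860 and 0.898 with WT replicates 1 and 2. Those 2 WT libraries correlated at 0.962. With cKO replicates 1, 2 and 3, WT replicate 1 correlated at 0.915, 0.893 and 0.903. For WT replicate 2 these values were 0.907, 0.913 and 0.937. The cKO libraries correlated at 0.935 to 0.958 with each other. These values do not tell which WT libraries are the unusual ones. Results are given with and without WT replicate 3. It was singled out by these correlations, from the same data. Leaving out the WT library most like the cKO libraries favours larger differences between the labels. A pass in that setting is therefore a description only.

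No caveola gene passed the test between the genotype labels with all 6 libraries weighted equally, and the intervals were wide. By limma on log2(FPKM + 1) with Benjamini-Hochberg adjustment over 12284 genes, 0 of the 7 passed an adjusted p of 0.05, where 0.0163% of all tested genes did. At an unadjusted p under 0.05 there were also 0 of 7, against 6.81% of tested genes. For 6 of 7 the mean log2 level was lower under the cKO label, against 40.2% of tested genes, and the median log2 difference was -0.37 against 0.08 over all tested genes. All 3 cKO values lay below all 3 WT values in 0 of 7 genes, where this held for 5.01% of tested genes. The reverse also held for 0 of 7, against 6.28%, so groups apart in either direction made up 11.3% of tested genes and 0 of 7 members. Exact two-sided permutation tests gave p = 0.3 to p = 0.7 for the 7 genes, where 3 against 3 libraries cannot go below 0.1.

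The split ran between libraries instead. WT replicates 1 and 2 were the 2 highest of the 6 libraries for Cavin1, Cavin2, Cavin3 and Ehd2, 4 of 7 genes, a pattern found in 12.8% of tested genes. WT replicate 3 lay below the range of the cKO libraries for Cavin1 and Ehd2 and inside it for the other members. How often this holds over all tested genes was not computed, so it describes these genes only. Cav1, Cav2 and Pacsin2 did not have WT replicates 1 and 2 as the 2 highest libraries.

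**Figure D1:**
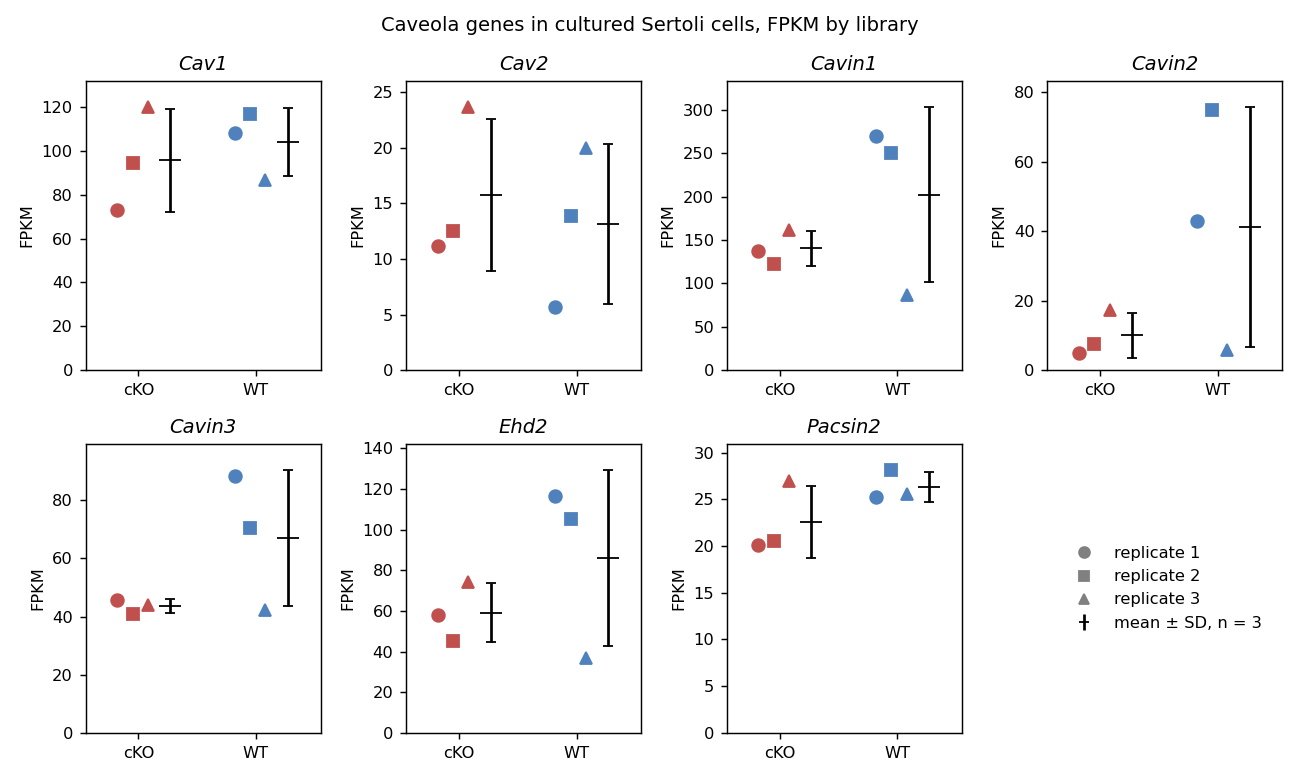
FPKM of the 7 caveola genes (vertical axes from 0, one scale per gene) in the 3 cKO and 3 WT libraries; symbols give the replicate and black bars the mean ± SD of 3. WT replicates 1 and 2 lie above all other libraries for Cavin1, Cavin2, Cavin3 and Ehd2, while WT replicate 3 lies at 86.4 FPKM for Cavin1, below the cKO libraries.

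Cav1, which encodes the caveolin that builds the pit in most cell types, was among the more abundant transcripts. It had 72.8, 94.5 and 119.8 FPKM in the libraries labelled cKO, against 107.9, 117.0 and 86.8 FPKM in WT replicates 1, 2 and 3. The groups overlapped, with cKO replicate 3 the highest and cKO replicate 1 the lowest library. Means were 95.7 ± 23.5 FPKM under the cKO label and 103.9 ± 15.5 FPKM in WT (SD, n = 3 each). The log2 difference was -0.13 with an SE of 0.24 and a 95% interval from -0.71 to 0.44 (limma, adjusted p = 0.933), and it was 0.05 without cKO replicate 1.

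Cav2 encodes the partner caveolin that joins CAV1 in hetero-oligomers and needs it to reach the surface. It had 11.1, 12.5 and 23.6 FPKM in the libraries labelled cKO, against 5.65, 13.8 and 20.0 FPKM in WT libraries. The groups overlapped: cKO replicate 3 and WT replicate 3 were highest and WT replicate 1 lowest. The log2 difference was 0.32 with an SE of 0.46 and an interval from -0.76 to 1.40 (limma, adjusted p = 0.911), and it was -0.15 without WT replicate 1. Cav2 and Cav1 are neighbours on chromosome 6 in the RefSeq annotation, with 0 annotated genes between them, and yet they did not follow each other over the libraries. The Cav2 to Cav1 ratio of FPKM was 0.153, 0.133 and 0.197 in the libraries labelled cKO and 0.0523, 0.118 and 0.231 in WT libraries. This 2-gene ratio was thus lowest in WT replicate 1 and highest in WT replicate 3.

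Cavin1 encodes the coat protein without which caveolae do not form, and it had the highest mean level of the 7 genes in both genotypes. It stood at 137.0, 122.6 and 161.9 FPKM in the libraries labelled cKO, against 269.6, 251.0 and 86.4 FPKM in WT replicates 1, 2 and 3. The WT libraries thus held both extremes. The means were 140.5 ± 19.9 FPKM under the cKO label and 202.3 ± 100.8 FPKM in WT, and the WT spread was wider than the difference. The log2 difference was -0.37 with an SE of 0.43 and an interval from -1.37 to 0.64 (limma, adjusted p = 0.899). Without WT replicate 3 it was -0.89, with an SE of 0.20 and an adjusted p of 0.0585 (limma), short of the threshold.

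Cavin2 encodes a phosphatidylserine-binding cavin that shapes the caveolar membrane, and it varied most, by 14.7-fold between the highest and the lowest library. It was at 5.08, 7.66 and 17.4 FPKM in the libraries labelled cKO, against 42.9, 74.8 and 5.91 FPKM in WT libraries. WT replicate 3 lay among the cKO libraries, and WT replicates 1 and 2 were far above all others. The means were 10.1 ± 6.52 FPKM under the cKO label and 41.2 ± 34.5 FPKM in WT, and the log2 difference was -1.52 with an SE of 0.86 and an interval from -3.52 to 0.47 (limma, adjusted p = 0.781). Without WT replicate 3, Cavin2 was the 1 caveola gene that passed the test: it was lower under the cKO label by a log2 difference of -2.54, SE 0.47, interval from -3.66 to -1.42 (limma, adjusted p = 0.0382). That setting called 1.42% of tested genes lower and 2.47% higher, 3.89% in all, so Cavin2 was 1 of 174 lower genes. It called 478 genes in all, against 0 to 4 with any other single library left out.

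Cavin3, whose product binds protein kinase C delta and joins the coat through CAVIN1, had 45.8, 40.9 and 44.2 FPKM in the libraries labelled cKO, against 88.5, 70.5 and 42.3 FPKM in WT libraries. The 3 cKO libraries lay close together, and WT replicate 3 lay among them. The log2 difference was -0.55 with an SE of 0.28 and an interval from -1.21 to 0.11 (limma, adjusted p = 0.761), and without WT replicate 3 it was -0.85 with an SE of 0.19 (limma, adjusted p = 0.0598). An annotated gene on the opposite strand, Gm45667, shares 22.5% of the exonic length of Cavin3. It was listed at no more than 0.0453 FPKM in any library, and without a stated strand setting its fragments cannot be separated from those of Cavin3.

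Ehd2, the gene of the ATPase at the caveolar neck, had 58.2, 45.2 and 74.2 FPKM in the libraries labelled cKO, against 116.4, 105.3 and 36.7 FPKM in WT replicates 1, 2 and 3. It ordered the 6 libraries exactly as Cavin1 did, with WT replicate 1 on top and WT replicate 3 at the bottom, an order shared by 103 of the tested genes (0.838%). The log2 difference was -0.40 with an SE of 0.44 and an interval from -1.43 to 0.64 (limma, adjusted p = 0.896). Without WT replicate 3 it was -0.92, with an SE of 0.24 (limma, adjusted p = 0.0890).

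Pacsin2, the gene of the F-BAR membrane-bending protein, was the steadiest of the 7, with 1.40-fold between its extremes. It had 20.2, 20.5 and 27.0 FPKM in the libraries labelled cKO, against 25.2, 28.1 and 25.6 FPKM in WT libraries. The groups overlapped through cKO replicate 3. The log2 difference was -0.22 with an SE of 0.20 and an interval from -0.69 to 0.24 (limma, adjusted p = 0.876), and it was -0.24 without WT replicate 3.

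Without WT replicate 3, all 3 cKO values lay below both remaining WT values for Cavin1, Cavin2, Cavin3 and Ehd2, 4 of 7, where this held for 15.5% of tested genes and the reverse for 25.9%. The same 4 genes had an unadjusted limma p under 0.05 in that setting, against 22.3% of tested genes in either direction and 8.05% lower. The median log2 difference of the 7 was -0.85, against 0.11 over all tested genes. With gene-by-gene array weights, added after seeing the data, Cavin2 and Cavin3 passed, where 10.7% of tested genes were called and 4.29% were called lower. These weights were 0.433, 4.01 and 0.258 for WT replicates 1, 2 and 3, so the WT side rested mostly on WT replicate 2. The members were chosen with earlier results of these libraries known, so these counts describe the list only.

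**Figure D2:**
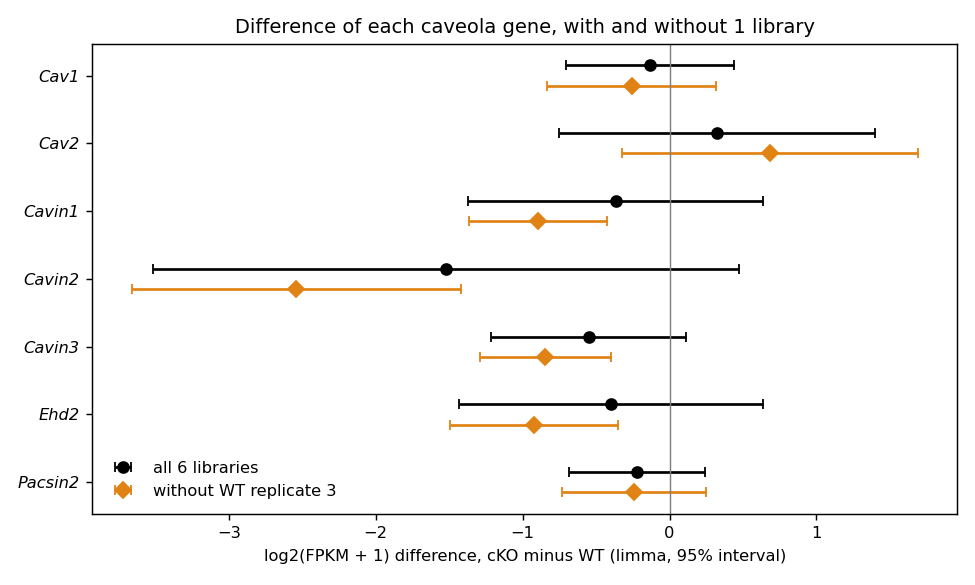
Difference in log2(FPKM + 1), cKO minus WT, of each caveola gene from limma with its 95% interval, for all 6 libraries (black circles) and without WT replicate 3 (orange diamonds). All intervals include 0 with 6 libraries; without WT replicate 3 those of Cavin1, Cavin2, Cavin3 and Ehd2 lie below 0, and the Cavin2 difference is -2.54.

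The RefSeq sequences upstream of Cavin1, Cavin2 and Ehd2 are shown because WT replicates 1 and 2 were highest for these genes, with Cav1, 1 of 3 genes without that pattern, beside them. RefSeq promoter entries (build GRCm38.p6) were matched for 6 of the 7 genes. Each line gives the 250 bases before the annotated start, 5′ to 3′ on the strand of the gene. Cavin1 is taken from chr11:100970618-100970867, minus strand, Cavin2 from chr1:51288876-51289125, plus strand, Ehd2 from chr7:15967536-15967785, minus strand, and Cav1 from chr6:17306085-17306334, plus strand, at the first of its 2 listed starts. Capitals mark every match, on either strand, to 5 motifs. The CCAAT box has its name for letters. The GC box, bound by Sp1-type factors, was searched as GGGCGG. The TATA box, which positions the polymerase in some promoters, was searched as TATAAA. The motif of TEAD factors, the DNA-binding partners of YAP, was searched as GGAATG. The CArG box is the motif of serum response factor. No matches overlapped.
Cavin1: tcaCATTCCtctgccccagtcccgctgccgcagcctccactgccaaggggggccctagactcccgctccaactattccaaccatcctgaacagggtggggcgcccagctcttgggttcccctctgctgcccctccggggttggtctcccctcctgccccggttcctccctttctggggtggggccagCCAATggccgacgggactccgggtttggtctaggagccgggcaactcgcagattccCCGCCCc
Cavin2: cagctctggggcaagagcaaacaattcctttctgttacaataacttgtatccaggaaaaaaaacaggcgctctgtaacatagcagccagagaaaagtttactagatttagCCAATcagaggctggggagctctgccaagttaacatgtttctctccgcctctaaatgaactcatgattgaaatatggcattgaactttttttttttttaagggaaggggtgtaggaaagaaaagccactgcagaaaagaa
Ehd2: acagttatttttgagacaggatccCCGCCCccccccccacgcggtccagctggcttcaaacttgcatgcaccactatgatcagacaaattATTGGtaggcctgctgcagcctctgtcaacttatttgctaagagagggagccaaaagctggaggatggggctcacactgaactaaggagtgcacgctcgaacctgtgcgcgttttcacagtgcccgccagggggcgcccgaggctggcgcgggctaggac
Cav1: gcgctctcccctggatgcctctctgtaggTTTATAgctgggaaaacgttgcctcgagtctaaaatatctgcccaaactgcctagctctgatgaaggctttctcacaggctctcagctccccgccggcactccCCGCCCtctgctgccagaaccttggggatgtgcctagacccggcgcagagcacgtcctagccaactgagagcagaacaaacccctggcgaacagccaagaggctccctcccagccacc
Counting back from the start site, CCAAT lay at bases 63 to 59 in Cavin1 and at bases 140 to 136 in Cavin2, and its reverse complement lay at bases 160 to 156 in Ehd2. It was found in neither window of Cav1, and it also occurred in windows of Cav2 and Pacsin2, which did not share the pattern. Of 32851 windows of the same length in the table, 33.8% held it. The GC box, in reverse complement, was present in the printed windows of Cavin1, Ehd2 and Cav1 and absent from that of Cavin2, against 32.7% of all windows. The Cavin1 window alone held the TEAD motif (12.6% of all windows), as its reverse complement, and the Cav1 window alone held the TATA box (12.4%), also in reverse complement. The CArG box matched in none of the 6 genes, against 1.5% of all windows. GC content of the printed windows was 67.6% for Cavin1, 58.0% for Ehd2, 59.6% for Cav1 and 40.4% for Cavin2. These are matches of letters and not tested sites.

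Added over the 7 genes, caveola transcripts came to 350.2, 343.9 and 468.1 FPKM in the libraries labelled cKO and to 656.2, 660.6 and 303.7 FPKM in WT replicates 1, 2 and 3. WT replicate 3 had the lowest sum of all 6 libraries and the other WT libraries the highest. The caveolin sum of Cav1 and Cav2 did not split this way: it was 84.0, 107.1 and 143.5 FPKM in the libraries labelled cKO and 113.6, 130.8 and 106.8 FPKM in WT libraries. The cavin sum was 187.8, 171.1 and 223.5 FPKM in the libraries labelled cKO and 401.0, 396.3 and 134.6 FPKM in WT libraries, with WT replicates 1 and 2 well above the rest and WT replicate 3 lowest. In bulk RNA, fewer cells of a type and less RNA per cell cannot be told apart.

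Ratios between members within a library do not depend on the scaling between libraries. They can still carry the library trends with GC content given below, where members differ in it. Cavin1 has 57.3%, Ehd2 54.5% and Cav1 42.6% GC, and the part of such trends in the ratios was not tested. Cavin1 stood at 1.88, 1.30 and 1.35 times the Cav1 level in the libraries labelled cKO and at 2.50, 2.15 and 0.996 times in WT replicates 1, 2 and 3. Ehd2 stood at 0.799, 0.479 and 0.619 times Cav1 in the libraries labelled cKO and at 1.08, 0.900 and 0.423 times in WT libraries. For both ratios WT replicate 3 was the lowest library. Within the coat, Cavin2 made up 2.71%, 4.48% and 7.81% of the cavin sum in the libraries labelled cKO and 10.7%, 18.9% and 4.39% in WT libraries. The Cavin3 to Cavin1 ratio was 0.334, 0.333 and 0.273 in the libraries labelled cKO and 0.328, 0.281 and 0.489 in WT libraries. The Pacsin2 to Cav1 ratio stayed between 0.217 and 0.277 in the libraries labelled cKO and between 0.234 and 0.295 in WT libraries. The groups overlapped in all 6 ratios computed, and no test was run on them.

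**Figure D3:**
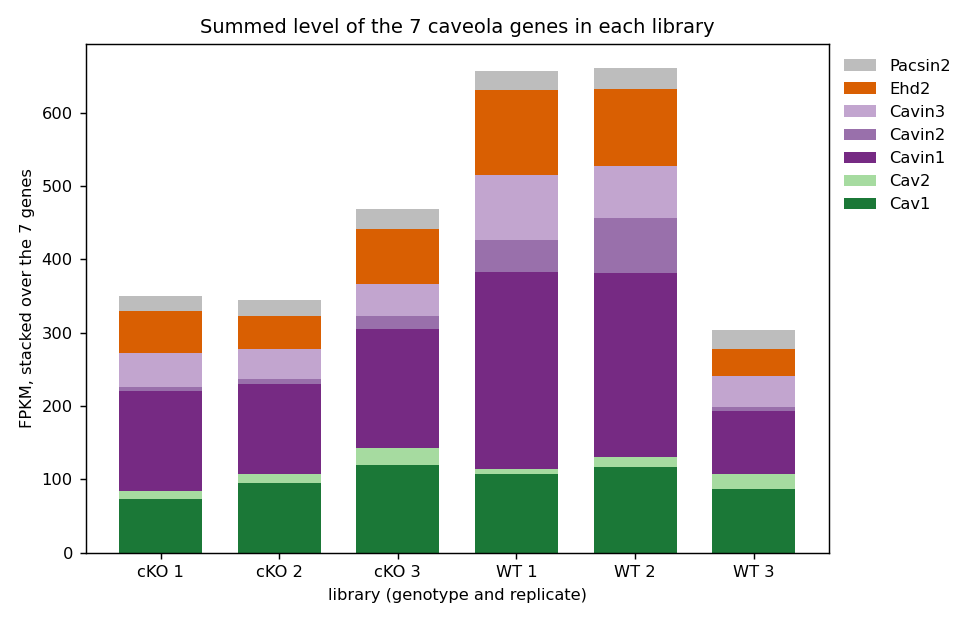
FPKM of the 7 caveola genes stacked for each library, cKO on the left and WT on the right. WT replicates 1 and 2 reach 656.2 and 660.6 FPKM through taller Cavin1, Cavin2, Cavin3 and Ehd2 segments, while Cav1 stays between 72.8 and 119.8 FPKM in all 6 libraries.

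Order of level, compared per length, was the same at the top in both genotypes. By mean FPKM it ran Cavin1, Cav1, Ehd2 and Cavin3. Below these came Pacsin2 at 22.6 ± 3.85, Cav2 at 15.8 ± 6.84 and Cavin2 at 10.1 ± 6.52 FPKM in the libraries labelled cKO. In WT libraries Cavin2 came first among these lower genes at 41.2 ± 34.5 FPKM, then Pacsin2 at 26.3 ± 1.59 and Cav2 at 13.2 ± 7.20 FPKM. Cav2 and Cavin2 did not differ beyond their spread in the libraries labelled cKO, nor did Cavin2 and Pacsin2 in WT libraries. Among the 12284 tested genes Cavin1 ranked at the 95.5th to 98.6th percentile of its library, and Cavin2 anywhere from the 39.8th to the 94.5th.

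Markers of the cell types in a testis culture moved between the same libraries. Sertoli cell markers, of which 18 of 18 were measured, summed to 623.3 to 948.4 FPKM in the libraries labelled cKO and to 347.5, 345.3 and 824.1 FPKM in WT replicates 1, 2 and 3. Clu, a secreted chaperone, was the largest part of this sum in the libraries labelled cKO. Of 16 Sertoli markers tested, 13 had a higher mean log2 level under the cKO label and 3 a lower one. Sox9, which sets Sertoli cell fate, had 22.3 to 35.6 FPKM in the libraries labelled cKO and 5.10 to 20.2 FPKM in WT libraries. Inhbb, the inhibin beta B subunit, ran the other way, with 18.1, 15.4 and 32.6 FPKM in the libraries labelled cKO and 65.7, 85.4 and 6.04 FPKM in WT replicates 1, 2 and 3. Gata4 was also highest in WT replicate 1 and lowest in WT replicate 3, at 63.1 and 29.6 FPKM. Fshr, the receptor for follicle-stimulating hormone, was listed at 0 in WT replicates 1 and 2. Markers of peritubular myoid cells, a contractile cell type rich in caveolae, summed to 995.7, 1125 and 1714 FPKM in the libraries labelled cKO and to 3886, 3111 and 751.6 FPKM in WT libraries, with 10 of 10 measured. Smooth muscle actin, Acta2, accounted for most of this, at 598.7 to 1070 FPKM in the libraries labelled cKO and 2853, 2240 and 431.8 FPKM in WT replicates 1, 2 and 3. It had the same 2 libraries on top and the same one at the bottom as Cavin1. Of the 10 myoid markers, 7 had a lower mean log2 level under the cKO label and 3 a higher one. Over all tested genes 40.2% had a lower one. WT replicates 1 and 2 were the 2 highest libraries for 5 of these 10, against 12.8% of all tested genes. Myh11, smooth muscle myosin, was not among these, with 10.4, 4.76 and 30.0 FPKM in the libraries labelled cKO and 4.91, 7.21 and 15.0 FPKM in WT libraries.

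Macrophage and leukocyte markers (14 of 14) summed to 179.7 to 319.9 FPKM in the libraries labelled cKO and to 1314, 1068 and 295.7 FPKM in WT libraries. Of 13 tested, 12 had a lower mean log2 level under the cKO label and 1 a higher one. WT replicates 1 and 2 were the 2 highest libraries for 11 of these 13, against 12.8% of all tested genes. Fibroblast and stromal markers (10 of 10) summed to 728.9 to 1160 FPKM in the libraries labelled cKO and to 1008, 1418 and 657.2 FPKM in WT libraries. Of 9 tested, 7 had a lower mean log2 level under the cKO label and 2 a higher one. For 4 of the 9, WT replicates 1 and 2 were the 2 highest libraries. Endothelial markers (13 of 13), from a cell type with many caveolae, had sums of 109.6 to 183.8 FPKM in the libraries labelled cKO and 104.6 to 126.5 FPKM in WT libraries. Of 10 tested, 9 had a higher mean log2 level under the cKO label, and 0 had WT replicates 1 and 2 as the 2 highest libraries. Eng, the TGF-beta co-receptor endoglin, made up a large part of the sums, with 73.3, 44.6 and 46.0 FPKM in the libraries labelled cKO and 88.7, 72.8 and 36.1 FPKM in WT replicates 1, 2 and 3. Pecam1, an endothelial adhesion molecule, was at 2.49 to 7.99 FPKM in the libraries labelled cKO, against 0.317, 0.263 and 6.43 FPKM in WT replicates 1, 2 and 3. It was thus lowest in the libraries where Cavin2 was highest. Adipocyte markers were near 0, with sums of at most 1.69 FPKM over 4 measured genes. Leydig cell markers (8 of 8) summed to 143.0 to 243.4 FPKM in the libraries labelled cKO and 200.4 to 374.8 FPKM in WT libraries. Germ cell markers (11 of 11) summed to 19.9 to 260.3 FPKM in the libraries labelled cKO and 50.0 to 194.1 FPKM in WT libraries, with Stra8 and Acrv1 at 0 in some library. The part of any of these cell types in the caveola gene levels was not tested.

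**Figure D4:**
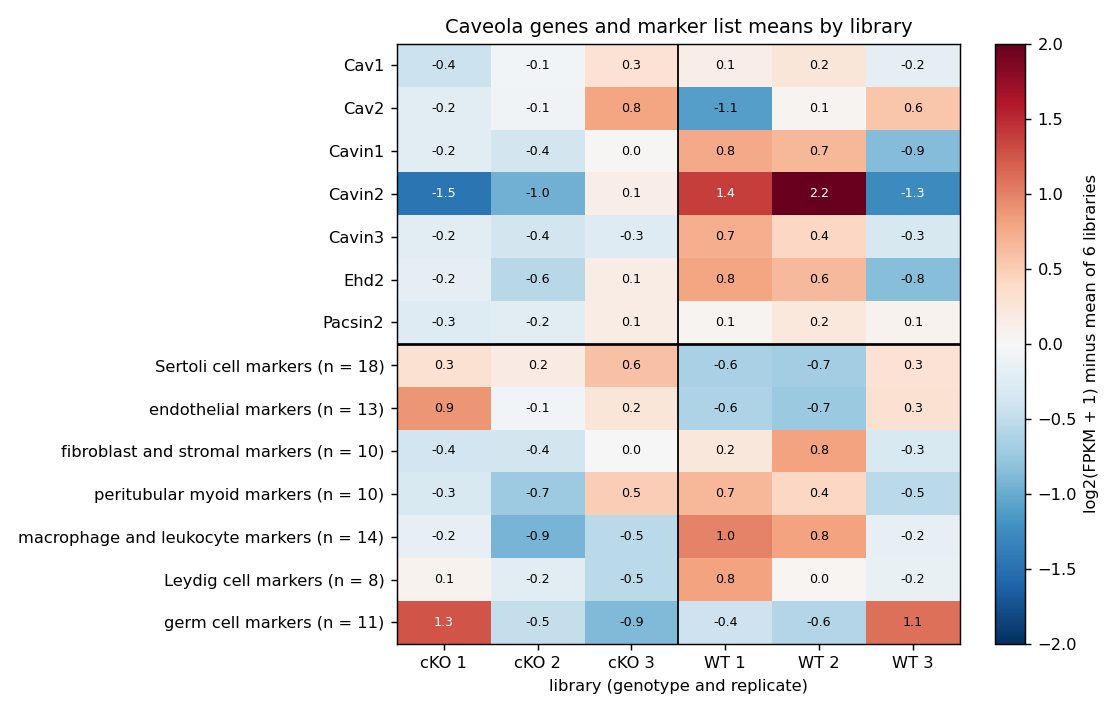
Log2(FPKM + 1) minus the mean of the 6 libraries, for each caveola gene (upper rows) and for the mean of each marker list (lower rows), with cKO libraries left and WT libraries right; red is above and blue below the mean. WT replicates 1 and 2 are above it for every caveola gene but Cav2 and for the fibroblast, myoid, macrophage and Leydig lists. They are below it for the Sertoli, endothelial and germ cell lists.

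Base composition also set libraries apart. Tested genes were put into 5 equal bins by GC content of the longest transcript. In the lowest bin (28.3% to 44.1% GC), the median log2 deviation from the mean of the libraries was -0.19, 0.04 and 0.22 in cKO replicates 1, 2 and 3 and -0.39, 0.05 and 0.27 in WT replicates 1, 2 and 3. In the highest bin (55.6% to 78.3% GC) it was 0.23, -0.05 and -0.02 in cKO libraries and 0.20, -0.12 and -0.21 in WT libraries. Cav2 lies in the lowest bin, at 37.5% GC, and its own log2 deviations were -0.23, -0.07 and 0.79 in cKO libraries and -1.10, 0.06 and 0.56 in WT libraries, with the same signs as that bin in 5 of 6 libraries. Cav1, with 42.6% GC, lies in the same bin, and its deviations of -0.43, -0.06 and 0.28 in cKO libraries and 0.13, 0.25 and -0.18 in WT libraries had the signs of the bin in 3 of 6. How many other genes of that bin share its signs was not computed, so these counts describe 2 genes only. Cavin1, Cavin3 and Ehd2 have 57.3%, 56.4% and 54.5% GC, and Cavin2 has 44.4%. Cavin1 lies in the highest bin. Its deviations were -0.21, -0.37 and 0.03 in cKO libraries and 0.76, 0.66 and -0.87 in WT libraries. In WT replicate 2 its sign was opposite to that of its bin. The part of base composition in the level of any member was not tested beyond the correction that follows.

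After a correction for GC content and transcript length, added after seeing the data, 0 of the 7 genes passed with all 6 libraries, and the log2 difference of Cav2 was 0.36 with an SE of 0.32. With the same correction and without WT replicate 3, 4 passed, all lower under the cKO label. These log2 differences were -0.98 for Cavin1 (limma, adjusted p = 0.0334), -2.68 for Cavin2 (0.0216), -0.78 for Cavin3 (0.0378) and -1.14 for Ehd2 (0.0381). In that setting 6.17% of tested genes were called, and 3.5% were called lower.

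**Figure D5:**
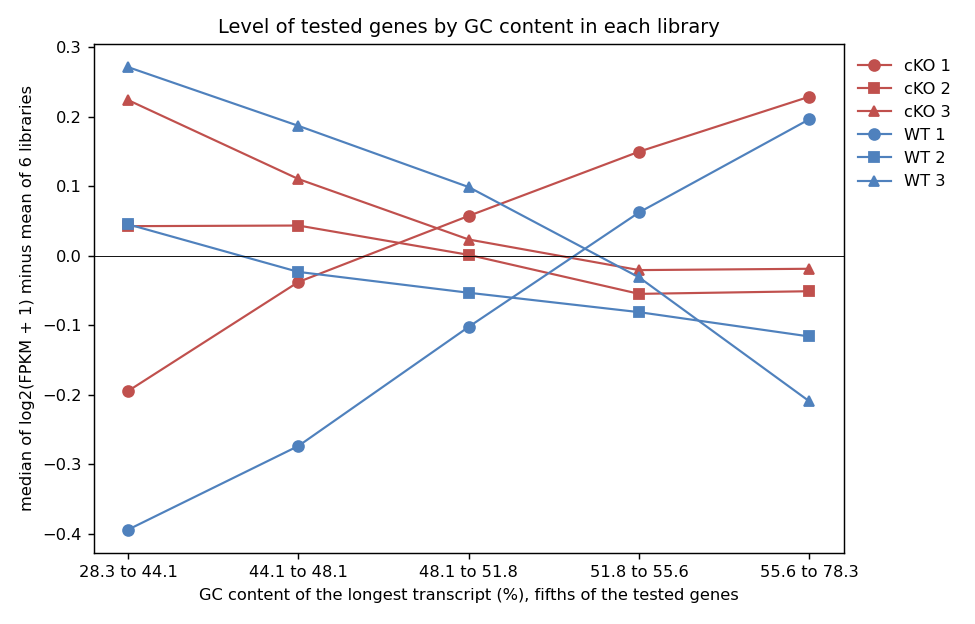
Median over tested genes of log2(FPKM + 1) minus the mean of the 6 libraries (vertical axis) in 5 equal bins of transcript GC content (horizontal axis), cKO libraries in red and WT libraries in blue. cKO replicate 1 and WT replicate 1 rise with GC content, WT replicate 3 and cKO replicate 3 fall, and the other libraries are flatter.

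Among paralogs of the caveola genes, Cav3 had the same 2 libraries on top. Cav3, the caveolin of striated muscle, was at 10.2, 5.66 and 7.96 FPKM in the libraries labelled cKO, against 30.1, 19.3 and 4.04 FPKM in WT replicates 1, 2 and 3. Its log2 difference was -0.75 with an SE of 0.63 (limma, adjusted p = 0.865), and without WT replicate 3 it was -1.52, which passed (limma, adjusted p = 0.0429) where 3.89% of all tested genes did. Of the 7 paralogs, 4 passed the filter on low values and 0 of these passed the test, against 0.0163% of all tested genes. Pacsin3 had the smallest p, with a log2 difference of 0.53, SE 0.27 (limma, adjusted p = 0.761), at 6.41 ± 1.90 FPKM in the libraries labelled cKO and 4.12 ± 1.08 FPKM in WT libraries. Ehd4 had 14.1 ± 3.42 FPKM in the libraries labelled cKO and 12.8 ± 0.592 FPKM in WT libraries (limma, adjusted p = 0.949). The muscle cavin Cavin4, Ehd3 and Pacsin1, the neuronal form, were below the filter, at no more than 0.909, 1.02 and 0.119 FPKM in any library.

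Among 10 genes of the caveolar neck, of its link to actin and of flotillin rafts, 9 were tested and 0 passed (0.0163% of all tested genes), with 1 at an unadjusted p under 0.05 (6.81% of all tested genes). That gene was Src, the kinase that phosphorylates CAV1, with 19.4, 23.2 and 17.1 FPKM in the libraries labelled cKO, against 9.87, 8.73 and 11.9 FPKM in WT libraries. All 3 cKO values lay above all WT values, as in 6.28% of all tested genes. The log2 difference was 0.90 with an SE of 0.21 (limma, adjusted p = 0.545). Without WT replicate 3, where 3.89% of all tested genes passed, the Src difference was 1.01 (limma, adjusted p = 0.0484). The scission GTPase gene Dnm1 had 1.57 ± 1.06 FPKM in the libraries labelled cKO and 2.48 ± 0.701 FPKM in WT libraries (limma, adjusted p = 0.819). The flotillins, which scaffold rafts separate from caveolae, also had WT replicates 1 and 2 highest and WT replicate 3 lowest. Flot2 had 45.3, 35.1 and 38.9 FPKM in the libraries labelled cKO and 69.2, 56.7 and 34.6 FPKM in WT libraries (limma, adjusted p = 0.847). Flot1 was picked out once its values were known because it has the library order of Cavin1. It had 15.2, 12.3 and 22.1 FPKM in the libraries labelled cKO and 45.3, 37.5 and 9.78 FPKM in WT libraries (limma, adjusted p = 0.865). Without WT replicate 3 the Flot1 log2 difference was -1.31, which also passed (limma, adjusted p = 0.0484). In that setting this list thus had 1 gene called higher, Src, and 1 called lower, Flot1.

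Receptors and enzymes known to reside in caveolae or bind caveolin gave 0 calls in 9 tested of 10 listed (0.0163% of all tested genes), with 1 at an unadjusted p under 0.05 (6.81%). Cd36, a fatty acid transporter, was at 21.2, 14.3 and 28.3 FPKM in the libraries labelled cKO, against 38.3, 68.4 and 36.1 FPKM in WT libraries. The groups did not overlap, as in 11.3% of all tested genes, and the log2 difference was -1.11 with an SE of 0.34 (limma, adjusted p = 0.607). Kdr, the VEGF receptor, was at 4.38, 1.58 and 2.58 FPKM in the libraries labelled cKO and 0.236, 0.210 and 3.19 FPKM in WT libraries (limma, adjusted p = 0.768), and it passed without WT replicate 3 (log2 difference 1.59, limma, adjusted p = 0.0491), where 3.89% of all tested genes did. The insulin receptor gene Insr had 3.07 ± 0.164 FPKM in the libraries labelled cKO and 2.71 ± 1.97 FPKM in WT libraries (limma, adjusted p = 0.908).

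The clathrin coat, the other main endocytic route, gave 0 calls in 14 tested of 15 listed (0.0163% of all tested genes), with 2 at an unadjusted p under 0.05 (6.81% of all tested genes) and a median log2 difference of 0.03, against 0.08 over all tested genes. The adaptor gene Ap2a2 had 35.5, 29.3 and 31.3 FPKM in the libraries labelled cKO and 52.3, 61.2 and 36.5 FPKM in WT libraries (limma, log2 difference -0.60, adjusted p = 0.695). The light chain gene Cltb had 26.9, 23.0 and 27.5 FPKM in the libraries labelled cKO and 20.3, 11.4 and 18.3 FPKM in WT libraries (limma, log2 difference 0.64, adjusted p = 0.695). For both genes the groups did not overlap, which held for 11.3% of all tested genes, and neither passed. Dab2, a cargo adaptor, had 14.9, 11.8 and 14.8 FPKM in the libraries labelled cKO and 30.7, 33.4 and 12.9 FPKM in WT libraries (limma, adjusted p = 0.755), so its highest libraries were also WT replicates 1 and 2. Without WT replicate 3 its log2 difference was -1.16 (limma, adjusted p = 0.0302), where 3.89% of all tested genes passed. That pattern held for 4 of the 14 clathrin genes tested, against 12.8% of all tested genes.

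Genes whose levels were most like those of each caveola gene were ranked by Pearson's r of log2(FPKM + 1) over the 6 libraries among 7394 genes, as a description with no test. The points are the same 6 libraries for every gene, WT replicate 3 included. Among those nearest to Cav1 were Immt (0.996), Ube2d1 (0.986), Spc25 (0.966) and Lhfp (0.965). Immt, a protein of mitochondrial cristae, ranged only from 15.1 to 17.3 FPKM in all 6 libraries. Nearest to Cav2 were Ammecr1 (0.999) and the RNA-binding protein gene Qk (0.995). Cavin1 was nearest to Ergic1 (0.999) and to the Wnt receptor gene Fzd2 (0.998), the last with 38.4, 29.4 and 47.3 FPKM in the libraries labelled cKO and 103.6, 96.4 and 15.7 FPKM in WT libraries. Cavin2 was nearest to the LIM domain gene Pdlim3 (0.996) and to Myadm (0.994), Cavin3 to Smim7 (0.994) and Gstm2 (0.993), Ehd2 to Man1c1 (0.996) and Prpsap1 (0.996), and Pacsin2 to Arhgap18 (0.977) and Fam198b (0.971).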

How the data were processed

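Each of the 6 deposited tables holds 1 value per gene. The unit is not stated. The deposited values were taken as FPKM because, once multiplied by exonic length, they came in steps worth 1 fragment: among genes of 1 exon and at most 10 fragments, 99.1% to 99.5% lay within 0.02 times their fragment number of a whole number. Per the submitters' processing notes, FastQC, HISAT2 2.1.0 and the build mm8 were used. How fragments were assigned to genes, and with which annotation or strand, is not given in the sources used here. No count model was run on FPKM. Symbols matched 28932 of 29275 identifiers. Lengths and GC content came from GENCODE M21 (GRCm38), later than mm8, so no gene coordinates are given beyond those of the RefSeq promoters.

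Values were transformed to log2(FPKM + 1), on which changes of low genes are understated, and a gene was tested where 3 or more libraries reached 1 FPKM. The genotype term came from limma 3.58.1 under R 4.3.3 (two-sided moderated test, trended prior), and p-values were adjusted by Benjamini-Hochberg over 12284 genes at a threshold of 0.05. Arhgef15 is below that filter. The fit was tested on simulated data in which genes varied independently. That test does not cover whole libraries that deviate together. Members, gene lists and tests were chosen with earlier results of these data known. Named genes were the 7 members, up to 3 genes with the smallest p of each related list, and the genes nearest in pattern, of which 1 is not reported here. Flot1 and the single marker genes were named outside this rule, after their values were seen. Alternatives changed the filter, the pseudocount (0.1 or 5), the scaling (median-ratio or quantile), the library weights or the replicate block, or dropped 1 library at a time. Gene-by-gene array weights and the GC and length correction were added after seeing the data. Python 3.11.15 made tables and figures.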

Additional observations from a re-analysis of the deposited data

How the results depend on the processing

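With all 6 libraries, the log2 differences of the 7 caveola genes kept their sign in every filter, pseudocount, scaling, weighting, block and GC setting run. Leaving out 1 library gave -0.31 to 0.046 for Cav1 (0.046 without cKO replicate 1) and -0.15 to 0.68 for Cav2 (-0.15 without WT replicate 1), and the other 5 genes kept their sign. The number of members called changed in 3 settings and stayed the same in 14. The number of all tested genes called changed in 10 settings and stayed the same in 7. Cavin2 ranged from -2.54 to -0.81 with 1 library left out, with -2.54 and a call without WT replicate 3. Gene-by-gene array weights, which gave WT replicate 3 the lowest weight (0.258), called Cavin2 (-2.54) and Cavin3 (-0.70), 2 members, and 1311 genes in all (10.7%). They gave WT replicates 1 and 2 weights of 0.433 and 4.01, so WT replicate 2 carried most of the WT side. The default weights instead gave WT replicate 2 the lowest weight (0.242), stopped before convergence and called 2 genes and 0 members. The GC and length correction without WT replicate 3 called 4 members (Cavin1 at -0.98, Cavin2 at -2.68, Cavin3 at -0.78 and Ehd2 at -1.14) and 756 genes (6.17%), 328 higher and 428 lower in cKO, against 304 higher and 174 lower without the correction. Over all tested genes the count of 2 was 0 without the filter, 0 to 478 with 1 library left out, 4 without WT replicate 1 and 478 without WT replicate 3, and 0 to 1 members were called. The cause was not tested. With 1 library left out, 5 of the 6 log2 ratio differences changed sign: Cav2 to Cav1 (-0.06), Cavin1 to Cav1 (0.03) and Ehd2 to Cav1 (0.0031) without WT replicate 1, and Cavin3 to Cavin1 (0.04) and Pacsin2 to Cav1 (0.0074) without WT replicate 3. Cavin2 to Cavin1 stayed below 0.

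With the replicate number as a block, 0 genes and 0 members were called. The deviations of same-numbered libraries from their group means correlated at 0.138, 0.032 and -0.206, and WT replicate 2 correlated best with cKO replicate 3 (0.484). Deviations from a mean of 3 libraries depend on each other, so these values cannot show whether the numbers pair the samples. Caveola genes rested on at least 301 fragments in every library, while Arhgef15 rested on 3 to 63. With the deleted exons not known either, its level cannot check the labels.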
